A study of Mus musculus with 29 samples.

Results

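Mice that ate less without running were set against mice that ran without eating less, in brown adipose tissue (BAT), a fat depot that burns fuel for heat. The comparison takes 8 of the 29 RNA-seq libraries of the study, chosen by their labels alone: 4 from the calorie restriction group (CR, sedentary) and 4 from the exercise group (EX, fed freely). All mice were wild-type male C57BL/6J, 8 weeks old at the start and treated for 8 weeks. CR mice were brought down in weekly steps of 10% to 70% of free intake, and EX mice ran on a treadmill at 12 m/min and a 5 degree incline for 1 h on 5 days a week. Tissue was taken 24 h after the last bout and after a 6 h fast. The other BAT groups of the study, a sedentary control fed freely (3 libraries) and CREX, which had both treatments (4 libraries), are set beside them further on, as are the CR and EX groups of skeletal muscle (SkM). The labels do not say which libraries came from separate mice, so p-values measure the spread between these libraries, and CR and EX differ in both food and running, so a difference here cannot be assigned to 1 of them without the other groups.

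Brown adipocytes carry uncoupling protein 1 (UCP1) in the inner mitochondrial membrane, where it lets protons return without making ATP, and sympathetic nerves drive this through the beta-3 adrenergic receptor. The depot also holds capillaries, matrix, fibroblasts, macrophages and other antigen-presenting cells. Glucocorticoids, which rise when food is short, act on fat through a nuclear receptor that switches on a well-known set of genes.

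Of 24770 genes in the table, 13094 passed the filter on low counts. The libraries held 21154276 to 24560427 counts in CR and 21047242 to 22672096 in EX, so that 3 counts, the limit taken for a gene at 0, equal 0.123 to 0.143 CPM (counts scaled to the size of the library). The tissue label fits the defining markers: Fabp4, Cidea and Ucp1 were at 7319 to 8563, 1414 to 1708 and 1852 to 2576 CPM in CR and at 6564 to 7667, 1393 to 1727 and 2933 to 4105 CPM in EX. Some libraries also held RNA of neighbouring tissue. The summed level of 14 skeletal muscle markers ran from 62.5 to 1868 CPM in CR and from 53.1 to 5302 CPM in EX, with the lowest EX value in EX 4. None of these 14 markers was called by edgeR or DESeq2 or had an unadjusted p under 0.05 (0 of 14), with a median log2 fold change of -1.95, and 44 of 467 genes that are at least 10 times as high in SkM as in BAT of control mice were called (9.42%), 42 of them higher in EX. This count was 15 without CR 1, 19 without CR 2, 17 without CR 4, EX 2 or EX 3, and 112 without EX 4. EX 3 stood apart for interstitial matrix, at 3478 summed CPM of 31 genes against 1291 to 1420 CPM in the other EX libraries. Hepatocyte markers summed to 62.3 CPM in CR 3 and 53.9 CPM in EX 2, and to under 0.6 CPM in the other 6 libraries. The part of these RNAs in the results was not tested except where values without EX 3 or with the muscle marker level as a covariate are given.

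**Figure D1:**
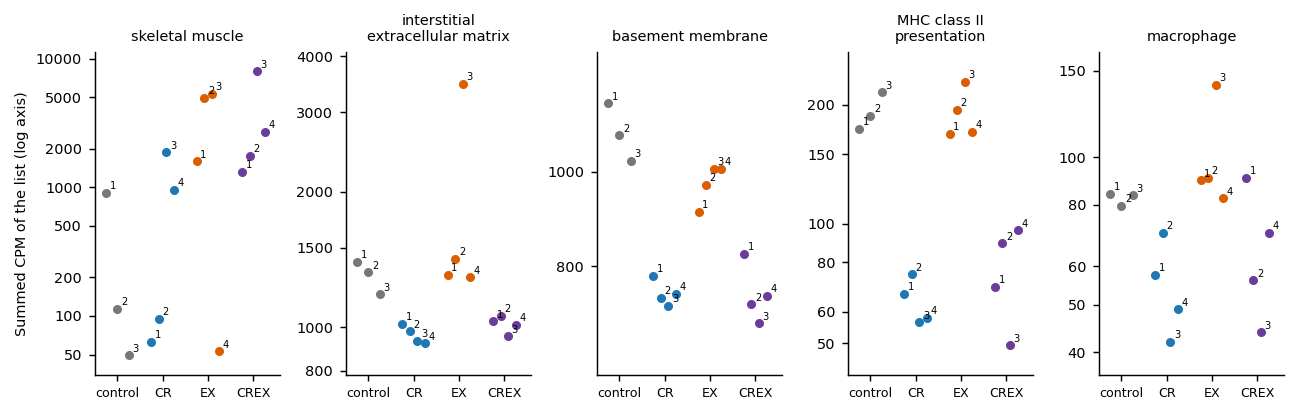
Summed CPM of the members of 5 gene lists (log axis) in each of the 15 BAT libraries, 1 point per library with its replicate number. The muscle panel spans 49.4 to 7951 CPM without separating CR from EX, EX 3 is the high point of the interstitial matrix panel, and the MHC class II panel has all CR libraries at 56.4 to 74.5 CPM and all EX libraries at 169 to 229 CPM.

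CR and EX brown fat differed at many genes. By edgeR's quasi-likelihood test, 1002 genes (7.65%) were differentially expressed genes (DEGs, more than 1.5-fold apart at a p under 0.05 after Benjamini-Hochberg adjustment): 333 were higher in CR (2.54%) and 669 higher in EX (5.11%). The change exceeded 2-fold for 131 of the first and 330 of the second. In 941 of the 1002 (93.9%) the CR and EX libraries did not overlap, against 22% of all tested genes. The calls were made on the same libraries, so a high share follows from the selection and adds no support. Log2 fold changes are given below as CR minus EX with their standard errors. Their median over all tested genes was -0.01, which the TMM scaling sets near 0, so each is relative to the bulk of the genes. The count depended on single libraries: it was 585 without CR 1, 612 without CR 4, and at most 1195, reached without EX 4. A principal component analysis of the 500 genes that varied most had a first component that took 75.9% of the variance and was led by muscle genes such as Acta1. Its scores did not separate the groups (exact two-sided permutation test, p = 0.229). The second took 11.9%, was led by genes that include Cyp2b10 and Fbp1, and separated them (the same exact permutation test, p = 0.0286, the smallest that 4 against 4 can give, and 0.0571 after adjustment over both components). Without EX 4 its exact permutation p was 0.343, and without CR 3 or CR 4 it was 0.0571. For the first component, led by muscle genes, the exact permutation p without EX 4 was 0.0571 (0.114 after adjustment over both components).

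The clearest group was antigen presentation by MHC class II, the route by which dendritic cells, macrophages and B cells show captured peptides to helper T cells. All 7 members that could be tested were lower in CR than in EX (7 of 7 called, median -1.52, against 5.11% of all genes called higher in EX and an overall median of -0.01). H2-Ab1, a beta chain of the peptide-holding molecule, stood at 9.65, 11.3, 8.14 and 8.29 CPM in CR and at 27.05, 32.1, 36.7 and 29.7 CPM in EX. No CR library reached the lowest EX library (-1.75 ± 0.13, adjusted p = 6.63e-05). Cd74, the invariant chain that guards the groove until it is loaded, was at 26.1, 27.6, 23.6 and 23.1 CPM in CR and 66.5, 78.7, 93.9 and 67.4 CPM in EX (-1.61 ± 0.12, adjusted p = 6.63e-05). Its levels in CR were close together and about a 3.06-fold step below EX. H2-Eb1 (-1.52 ± 0.12, adjusted p = 0.000106) and H2-Aa (-1.47 ± 0.15, adjusted p = 0.000592) code for further class II chains. H2-DMa (-1.25 ± 0.20, adjusted p = 0.00393) and H2-DMb1 (-1.498 ± 0.18, adjusted p = 0.00115) code for the exchange factor that swaps peptides in the groove. H2 genes have near-identical relatives, so the split of reads among them is uncertain.

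Ciita codes for the master transactivator of this gene group. It was low but measurable in EX, at 1.16, 1.198, 0.988 and 1.13 CPM, and at 0.173, 0.239, 0.123 and 0.255 CPM in CR, near the limit of detection, again without overlap (-2.48 ± 0.29, adjusted p = 0.000946). The 2 remaining members, H2-Oa and H2-Ob, did not pass the filter. In bulk tissue, fewer antigen-presenting cells and less of this RNA per cell cannot be told apart. The 7 calls held without EX 3 and with the muscle covariate, and in every fit that left out 1 library at least 7 members were called.

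CIITA acts at class II promoters that carry a conserved X box and Y box. The 250 bases before the annotated start of 3 of the genes are shown because they are called members that hold at least 1 of these motifs (RefSeq, GRCm38.p6, the build of the deposited mm10 counts). All are on chromosome 17, written 5′ to 3′ along the gene, with matches in capitals to the X box consensus (the upstream run of capitals) or to the Y box letters TGATTGG (the run nearest to the start), searched on both strands.
H2-Eb1, chr17:34305617-34305866, plus strand: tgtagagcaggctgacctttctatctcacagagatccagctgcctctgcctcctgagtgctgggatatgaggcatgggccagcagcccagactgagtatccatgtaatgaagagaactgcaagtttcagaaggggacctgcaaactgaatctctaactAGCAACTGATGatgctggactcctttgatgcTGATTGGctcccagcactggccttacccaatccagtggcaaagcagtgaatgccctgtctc
H2-DMb1, chr17:34152941-34153190, plus strand: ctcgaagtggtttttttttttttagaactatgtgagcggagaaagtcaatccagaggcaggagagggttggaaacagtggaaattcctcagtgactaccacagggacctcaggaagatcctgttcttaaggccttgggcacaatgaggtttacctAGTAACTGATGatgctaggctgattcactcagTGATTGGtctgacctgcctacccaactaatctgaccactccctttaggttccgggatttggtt
H2-Aa, chr17:34287824-34288073, minus strand: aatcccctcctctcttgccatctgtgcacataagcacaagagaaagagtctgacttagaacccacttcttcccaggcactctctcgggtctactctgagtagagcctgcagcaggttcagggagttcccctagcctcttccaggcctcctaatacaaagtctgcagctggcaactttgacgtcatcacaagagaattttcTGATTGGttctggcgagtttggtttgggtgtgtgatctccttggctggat
H2-Eb1 and H2-DMb1 held both motifs, the X box starting 92 and 95 bases and the Y box 61 and 63 bases before the start. H2-Aa held the Y box, 50 bases before the start, and no match to the X box consensus. H2-DMa, called as well, held neither in this window, and H2-Oa and H2-Ob, which were not tested, held the Y box letters alone. Of the other called members, H2-Ab1 and Ciita had no entry among the promoters and Cd74 was not looked up. Over all 32851 promoters of the same length, 0.259% held the X box consensus, 7.23% the Y box letters and 0.0213% both. A match describes letters and not binding.

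Other immune genes were also lower in CR. Of 8 macrophage markers 7 were called higher in EX (median -0.82). Mrc1, the mannose receptor, named after its values were seen, was at 4.24, 4.49, 2.92 and 3.23 CPM in CR and 6.95, 6.91, 9.01 and 5.82 CPM in EX (-0.95 ± 0.18, adjusted p = 0.00873), without overlap. This count was less stable than the class II count: it was 4 without EX 3, whose macrophage marker sum of 140.3 CPM was the highest of all, 4 with the muscle covariate, 3 without CR 1, 4 without CR 3, and 2 without CR 4 or EX 2. Lyz2 (lysozyme, -1.07 ± 0.27, adjusted p = 0.0398) and C1qa (complement, -0.78 ± 0.21, adjusted p = 0.0389) lost their calls without CR 1, CR 3, CR 4, EX 1 or EX 2 (adjusted p = 0.0617 to 0.105) and without CR 1, CR 3, CR 4, EX 2 or EX 3 (adjusted p = 0.0476 to 0.101). Both also lost their calls with the muscle covariate. Fcrls, a receptor of resident macrophages, was at 0.346, 0.382, 0.329 and 0.596 CPM in CR and 2.55, 1.29, 4.36 and 1.43 CPM in EX (-2.53 ± 0.43, adjusted p = 0.00595) and was called whichever library was left out.

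Among B cell markers the filter passed only Cd79a, a chain of the B cell receptor complex. It had 4 counts over the 4 CR libraries and 59 over the 4 EX libraries, a ratio of 15 (95% interval 5.54 to 56.7, counting error only). Of 4 mast cell markers 3 were called higher in EX, Mcpt4, a granule protease, at 0.433, 0.334, 0.247 and 0.383 CPM in CR and 1.11, 1.38, 2.304 and 0.739 CPM in EX (-1.98 ± 0.38, adjusted p = 0.00965), and Cpa3 (-2.01 ± 0.60, adjusted p = 0.0493) and Cma1 (-1.59 ± 0.35, adjusted p = 0.0155, named after its values were seen) were the other two. Cpa3 lost its call without CR 1, CR 2, CR 4, EX 1, EX 2, EX 3 or EX 4 (adjusted p = 0.0594 to 0.121) and Cma1 without CR 1 (adjusted p = 0.0524). Cpa3 was not called with the muscle covariate either. The count was 2 without EX 3 and 1 without CR 1. Kit, the stem cell factor receptor and the fourth marker, was not called and had a fold change above 0, at 8.18, 8.83, 8.796 and 8.46 CPM in CR and 12.7, 4.38, 4.03 and 2.65 CPM in EX (0.53 ± 0.46, adjusted p = 0.46). The summed level of the 4 markers had a median of 9.41 CPM in CR (9.09 to 9.64) and 8.04 CPM in EX (4.61 to 15.24), so its median was not higher in EX and the groups overlapped. No T cell or neutrophil marker passed the filter. Of 17 interferon-stimulated genes 4 were called, all higher in EX (median -0.39), led by Ifi27l2a at 13.7, 10.5, 15.5 and 11.2 CPM in CR and 30.2, 39.5, 35.9 and 33.7 CPM in EX (-1.46 ± 0.13, adjusted p = 0.000202). The others were Isg15 (-1.23 ± 0.34, adjusted p = 0.0348) and, named after their values were seen, Ifi44 (-1.12 ± 0.33, adjusted p = 0.0433) and Zbp1 (-1.41 ± 0.43, adjusted p = 0.0491). The count was 1 without CR 3, EX 2 or EX 3 and 2 without CR 1 or CR 4, and Ifi27l2a was called each time. Isg15 lost its call without CR 1, CR 3, CR 4, EX 2, EX 3 or EX 4 (adjusted p = 0.0583 to 0.0977), Ifi44 without CR 1, CR 3, CR 4, EX 1, EX 2, EX 3 or EX 4 (adjusted p = 0.0632 to 0.12) and Zbp1 without CR 2, CR 3, CR 4, EX 2, EX 3 or EX 4 (adjusted p = 0.089 to 0.126). Presentation by MHC class I gave 0 calls among 10 genes by edgeR and 0 by DESeq2 (median 0.02, 4 genes at an unadjusted p under 0.05), with B2m (-0.38 ± 0.10, adjusted p = 0.0254) and Tap1 (-0.54 ± 0.14, adjusted p = 0.031) under the fold limit.

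**Figure D2:**
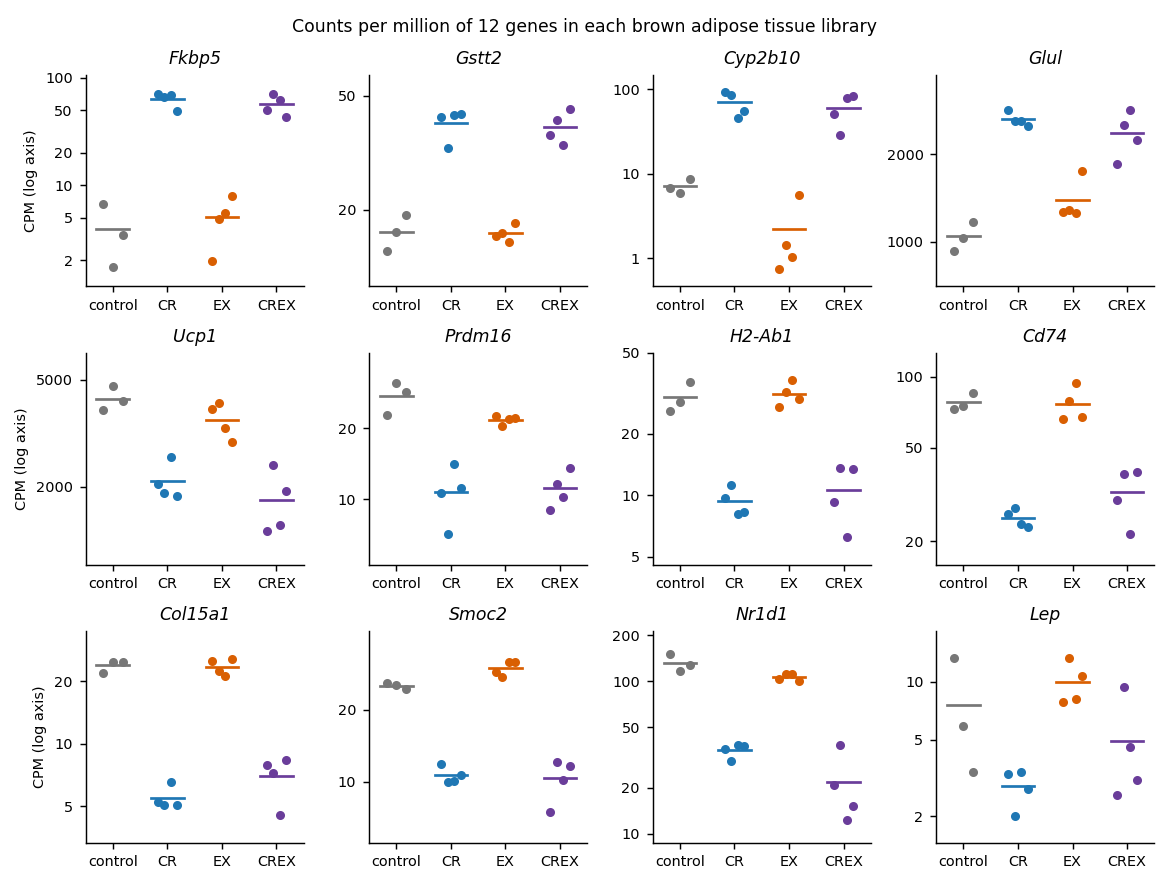
CPM (log axes) of 12 genes in each BAT library, points for libraries and bars for group means, in control (3), CR, EX and CREX (4 each). In each panel the CR and EX points do not overlap. For Fkbp5, Gstt2 and Cyp2b10 all control and EX libraries also lie below all CR and CREX libraries, and for Ucp1, H2-Ab1, Cd74, Col15a1 and Nr1d1 above them.

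Genes switched on by the glucocorticoid receptor went the other way. Of 18 such genes 9 were called higher in CR and none higher in EX (median 0.78, against 2.54% of all genes called higher in CR). Fkbp5, a chaperone partner that dampens the receptor, was at 70.6, 65.8, 68.6 and 49.5 CPM in CR and at 1.99, 4.88, 5.56 and 7.996 CPM in EX. The lowest CR library was far above the highest EX library (3.63 ± 0.38, adjusted p = 0.00276). Glul (glutamine synthetase) was at 2847, 2609.9, 2614 and 2503 CPM in CR and 1269, 1284, 1254 and 1759.97 CPM in EX (0.92 ± 0.11, adjusted p = 0.00115), a 1.89-fold step with EX 4 as the highest EX library. Mt1, a metallothionein that binds zinc and copper and shares reads with its close copy Mt2, was at 411, 602, 310.2 and 445 CPM in CR and 134, 141, 150.3 and 224 CPM in EX (1.44 ± 0.24, adjusted p = 0.00976). Nfkbia, the inhibitor of NF-kappaB, differed less (0.71 ± 0.14, adjusted p = 0.00996). Zbtb16 (PLZF, a transcription factor) had a large but scattered difference, at 181, 160.2, 42.7 and 94.05 CPM in CR and 7.78, 18.8, 8.97 and 26.1 CPM in EX (2.95 ± 0.63, adjusted p = 0.0301), and its call was lost without CR 1, CR 2, CR 4, EX 1, EX 2 or EX 3 (adjusted p = 0.0619 to 0.0782). Per1, also a receptor target, did not pass (0.65 ± 0.37, adjusted p = 0.267). The count of 9 fell to 5 without EX 2 or without EX 3, and was 8 with the muscle covariate.

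The largest fitted fold change among the DEGs was that of Cyp2b10, a cytochrome P450 of drug and lipid oxidation. It was at 93.3, 84.9, 45.1 and 55.8 CPM in CR and 0.741, 1.43, 1.03 and 5.61 CPM in EX (4.97 ± 0.69, adjusted p = 0.0094), a 31.4-fold difference. EX 4 was the highest EX library and still far below the lowest CR library. The call of Cyp2b10 was lost in a fit with replicate number as a block. Of 29 genes of xenobiotic metabolism 7 were called, all higher in CR (median 0.29). Gstt2, a glutathione transferase, was at 42.2, 32.97, 42.7 and 43.3 CPM in CR and 16.2, 16.6, 15.5 and 18.03 CPM in EX (1.28 ± 0.10, adjusted p = 9.43e-05), and Fmo2, a flavin monooxygenase, at 34.5, 43.04, 26.6 and 28.5 CPM and 9.402, 11.8, 12.5 and 10.95 CPM (1.56 ± 0.15, adjusted p = 0.000503). Both pairs of groups were well apart. Gstt1 (0.71 ± 0.10, adjusted p = 0.0023) and Fmo1 (0.65 ± 0.09, adjusted p = 0.00251) rose by smaller steps. The count was 6 without EX 2 or EX 3 and 10 without EX 4. Cyp2b10 belongs to a family of near-identical copies, so its reads may be shared.

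Several genes of fuel handling stood with them. Fbp1, of gluconeogenesis, was at 3.85, 2.67, 5.75 and 4.51 CPM in CR and 0.509, 0.691, 0.165 and 0.0869 CPM in EX (3.54 ± 0.49, adjusted p = 0.0031), so near or under 3 counts per library in EX 3 and EX 4 that the size of the fold is loose. Slc27a1, a fatty acid transport protein, was at 379.9, 395, 541 and 412 CPM in CR and 149.8, 198, 167 and 191 CPM in EX (1.29 ± 0.13, adjusted p = 0.000416). Acot1, which frees fatty acids from coenzyme A and has a close copy in Acot2, also rose (1.87 ± 0.32, adjusted p = 0.0129). Among PPAR targets, Acot1 and Acot2 were called higher in CR, and 2 were called higher in EX (Fabp3 and, named after its values were seen, Vnn1 with -1.48 ± 0.41, adjusted p = 0.0382). Vnn1 lost its call without CR 1, CR 2, CR 3, CR 4, EX 1, EX 2 or EX 3 (adjusted p = 0.0568 to 0.102), and with the muscle covariate. Neither of the 2 was called without CR 1, CR 4 or EX 3. The call of Acot2 (0.69 ± 0.16, adjusted p = 0.0259) was lost without CR 4, EX 3 or EX 4 (adjusted p = 0.053 to 0.0695). Foxo3, a transcription factor held in check by insulin, was higher in CR (0.81 ± 0.16, adjusted p = 0.0114), as was Tcn2, which carries vitamin B12, at 157, 163, 162 and 171 CPM in CR and 64.6, 77.8, 70.8 and 71.7 CPM in EX (1.19 ± 0.07, adjusted p = 1.9e-05).

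The genes of heat production split. Ucp1 was at 2057, 1903, 2576 and 1852 CPM in CR and at 3889, 4105, 3302 and 2933 CPM in EX. All 4 CR libraries lay under all 4 EX libraries, a 1.699-fold difference (-0.77 ± 0.13, adjusted p = 0.00589) that was called whichever library was left out. Prdm16, a transcription regulator that fixes brown fat identity, was at 10.6, 7.11, 14.1 and 11.1 CPM in CR and 22.6, 20.5, 21.97 and 22.1 CPM in EX (-1.02 ± 0.17, adjusted p = 0.0061). Adrb3, the receptor through which nerves call for heat, was at 120.05, 83.7, 66.01 and 125 CPM in CR and 172, 189.6, 203 and 185 CPM in EX (-0.93 ± 0.19, adjusted p = 0.0188), with the call lost without CR 2, EX 2 or EX 3 (adjusted p = 0.0503 to 0.0571). Fabp3, a fatty acid carrier, went the same way (-0.98 ± 0.22, adjusted p = 0.0235) with the call lost without CR 1, CR 4 or EX 3 (adjusted p = 0.052 to 0.0671). Of 19 thermogenic and identity genes these 4 were called higher in EX and Elovl3, an elongase named after its values were seen, higher in CR (0.62 ± 0.16, adjusted p = 0.0328). The median was -0.09. Cidea differed by less than the spread between libraries (-0.01 ± 0.09, adjusted p = 0.938). Without EX 3, 2 were called higher in EX, and Elovl3 lost its call without CR 2, CR 3, CR 4, EX 2 or EX 3 (adjusted p = 0.0621 to 0.089) and with the muscle covariate. None of 15 tricarboxylic acid cycle genes, 37 nuclear complex I genes or 13 mitochondrial genome genes was called by edgeR or DESeq2 (medians 0.12, 0.18 and -0.26). At an unadjusted p under 0.05 these lists had 6, 18 and 4 genes, and 3, 3 and 2 had an adjusted p under 0.05 at smaller folds, where 1936 of all tested genes (14.8%) had such a p, 886 higher in CR (6.77%) and 1050 higher in EX (8.02%). Mitochondrial genome transcripts made up 41.5% to 44.3% of counts in CR and 41.9% to 45.9% in EX.

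**Figure D3:**
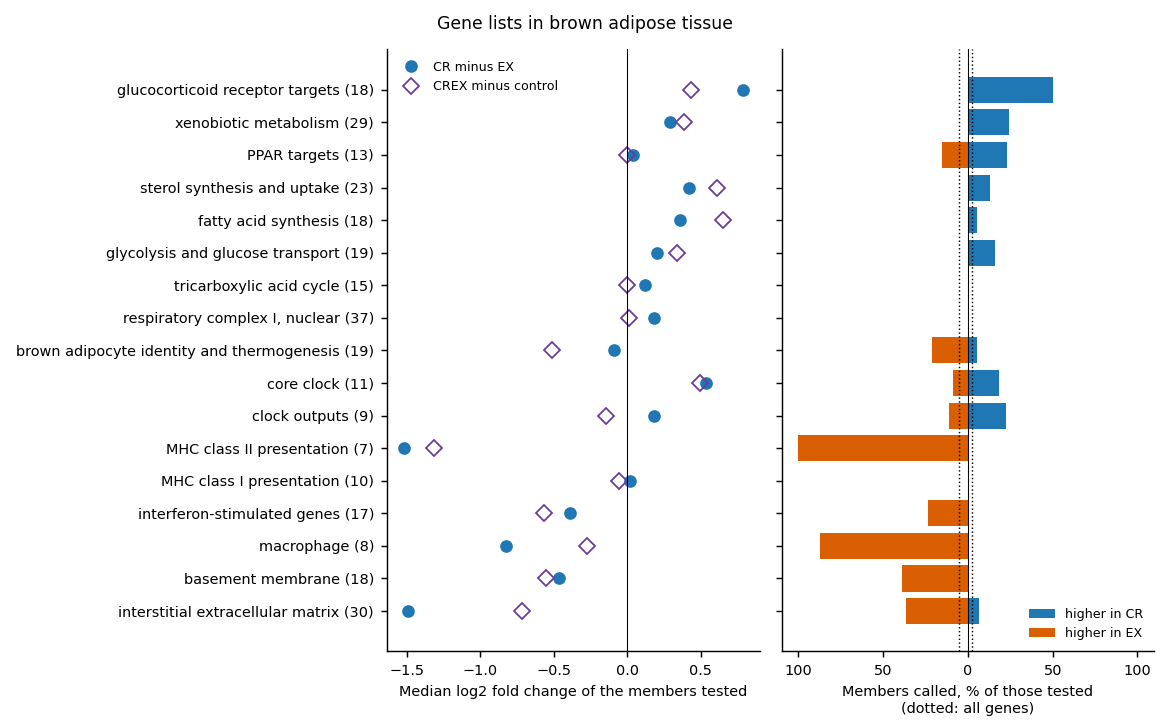
Left, the median log2 fold change of 17 gene lists (members tested in brackets) for CR minus EX (circles) and CREX minus control (diamonds). Right, the share of members called higher in CR (to the right) and in EX (to the left), with dotted lines at the shares over all genes, 2.54% and 5.11%. Glucocorticoid targets lead to the right and MHC class II, macrophage and matrix lists to the left, and the medians of both comparisons have the same sign except for PPAR targets, the tricarboxylic acid cycle, clock outputs and MHC class I.

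The circadian clock is a loop in which BMAL1 and CLOCK switch on their own repressors over the day. CR and EX libraries differed at part of it. Nr1d1 (REV-ERB alpha, a repressor of Bmal1) was at 35.7, 29.8, 37.9 and 37.7 CPM in CR and 103, 111, 112 and 101 CPM in EX, tight in both groups (-1.597 ± 0.09, adjusted p = 1.2e-05). Cry1, a repressor of the loop, was at 24.2, 19.5, 15.5 and 20.7 CPM in CR and 4.72, 6.96, 7.57 and 6.56 CPM in EX (1.62 ± 0.17, adjusted p = 0.000538). Neither gene overlapped between the groups. Rora (0.54 ± 0.10, adjusted p = 0.00863), Per3 (0.56 ± 0.11, adjusted p = 0.0109) and Cry2 (0.26 ± 0.08, adjusted p = 0.0472) passed on p but not on fold. Per2 was at 49.9, 47.5, 46.8 and 40.5 CPM in CR and 7.32, 26.9, 25.6 and 21.7 CPM in EX and Per1 at 48.1, 46.6, 47.4 and 38.2 CPM and 10.7, 38.3, 30.7 and 34.7 CPM, each with EX 1 as the lowest library by far, and neither passed (Per2 1.17 ± 0.38, adjusted p = 0.0826). Arntl (Bmal1, 0.41 ± 0.35, adjusted p = 0.45), Clock (-0.06 ± 0.10, adjusted p = 0.705) and Nr1d2 (-0.04 ± 0.08, adjusted p = 0.749) did not pass, and Npas2 was not tested. The time of day at collection is not given in the sources used here.

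Among 9 clock outputs, Wee1, a cell cycle kinase, was higher in CR at 10.996, 10.5, 9.86 and 9.61 CPM against 5.74, 5.48, 6.25 and 6.61 CPM in EX (0.76 ± 0.10, adjusted p = 0.00167), as was Usp2, a deubiquitinase (0.88 ± 0.15, adjusted p = 0.00873). Bhlhe41 (DEC2, a repressor of clock genes) was higher in EX (-0.74 ± 0.11, adjusted p = 0.00276). Dbp, which follows CLOCK and BMAL1 directly, was lower in CR on p but under the fold limit, at 38.5, 37.6, 46.9 and 38.1 CPM in CR and 55.3, 56.1, 49.6 and 52.3 CPM in EX (-0.41 ± 0.08, adjusted p = 0.0125). The other members, Tef (0.27), Hlf (-0.004 ± 0.17), Nfil3 (0.89), Ciart (0.18) and Bhlhe40 (-0.55), did not pass. The promoter of Cry1, which was higher in CR, is shown because it holds the E box CACGTG (capitals), the letters to which CLOCK and BMAL1 bind. Those of Dbp, Nr1d1 and the other clock genes were not looked up, so the motif does not set Cry1 apart from them.
Cry1, chr10:85185055-85185304, minus strand, GRCm38.p6: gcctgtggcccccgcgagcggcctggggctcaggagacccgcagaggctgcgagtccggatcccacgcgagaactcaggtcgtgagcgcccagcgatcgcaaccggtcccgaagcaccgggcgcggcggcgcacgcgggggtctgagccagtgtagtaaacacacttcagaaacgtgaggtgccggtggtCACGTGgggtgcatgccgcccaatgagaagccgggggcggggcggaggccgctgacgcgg
The E box lies 60 bases before the start, and 6.02% of all promoters of this length hold these letters on either strand, with no meaning for binding drawn here.

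Genes of sterol and fatty acid synthesis had list medians above 0 and few calls. Of 23 genes of sterol synthesis and uptake 3 were called, all higher in CR (median 0.42, 19 of 23 above 0). Fdft1 (squalene synthase, the first step committed to sterols) was at 249.5, 294, 241 and 229 CPM in CR and 92.6, 71.6, 91.4 and 113 CPM in EX (1.46 ± 0.13, adjusted p = 0.000242). Insig1 (0.67 ± 0.17, adjusted p = 0.0345) and Mvd (0.86 ± 0.25, adjusted p = 0.0449) completed the 3, and their calls were lost without CR 1, CR 2, CR 4, EX 2, EX 3 or EX 4 (adjusted p = 0.0664 to 0.0829) and without CR 1, CR 2, CR 4, EX 2, EX 3 or EX 4 (adjusted p = 0.0545 to 0.116), respectively. Insig1 was not called with the muscle covariate either. Msmo1 fell short on fold (0.56 ± 0.15, adjusted p = 0.0353). Of 18 genes of fatty acid synthesis only the desaturase Fads1 was called, at 20.5, 26.6, 19.9 and 24.1 CPM in CR and 9.86, 11.1, 9.75 and 8.99 CPM in EX (1.19 ± 0.11, adjusted p = 0.000217), with a list median of 0.36. Elovl6, an elongase, was at 1154, 989, 1311 and 1285 CPM in CR and 1123, 497, 598 and 750.4 CPM in EX, with EX 1 among the CR libraries (0.67 ± 0.24, adjusted p = 0.101). In Slc25a1, the mitochondrial citrate carrier (0.77 ± 0.25, adjusted p = 0.0768), and Pnpla3 (0.69 ± 0.23, adjusted p = 0.0864) EX 1 was again the highest EX library. Without EX 1, 5 genes of the fatty acid list and 9 of the sterol list were called, and without CR 1, CR 4, EX 2, EX 3 or EX 4 the sterol list had 1.

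Of 19 genes of glycolysis and glucose transport 3 were called higher in CR (median 0.20): Aldoc (1.79 ± 0.31, adjusted p = 0.0063), Gpi1 (0.76 ± 0.17, adjusted p = 0.0223) and Aldoa (0.65 ± 0.16, adjusted p = 0.024). Aldoa was at 4603, 5576, 4491 and 5146 CPM in CR and 4099.6, 2337, 2824 and 3316 CPM in EX, again with EX 1 nearest to CR. The calls of Gpi1 and Aldoa were lost without CR 2, CR 4 or EX 3 (adjusted p = 0.051 to 0.0604) and without CR 1, CR 2, CR 4, EX 2 or EX 3 (adjusted p = 0.0387 to 0.0671), respectively. Only 1 gene of the list was called without CR 2, CR 4 or EX 3. Ldha was higher in CR under the fold limit (0.396 ± 0.11, adjusted p = 0.0317). Lpin1, which makes diacylglycerol and also co-activates fatty acid oxidation, was higher in CR (0.91 ± 0.18, adjusted p = 0.0141), the single call of 13 triglyceride synthesis genes. Lipolysis gave 0 calls among 16 genes by edgeR and 0 by DESeq2 (6 at an unadjusted p under 0.05), with Pnpla2 (adipose triglyceride lipase) higher in CR (0.45 ± 0.09, adjusted p = 0.0114) and Plin1, which coats the lipid droplet, lower (-0.41 ± 0.11, adjusted p = 0.0318), both under the fold limit. Alpl, the phosphatase of a creatine cycle that spends energy in fat, was lower in CR, at 7.53, 8.16, 9.08 and 8.98 CPM against 16.6, 22.1, 20.99 and 16.6 CPM in EX (-1.18 ± 0.12, adjusted p = 0.000359), the only call among 9 genes of creatine and calcium cycling.

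Matrix genes were lower in CR. In the basement membrane, the sheet around adipocytes and capillaries, 7 of 18 genes were called higher in EX and none higher in CR (median -0.46). Col15a1, a collagen that ties this sheet to the matrix, was at 5.24, 5.06, 6.58 and 5.06 CPM in CR and 25.1, 22.3, 21.1 and 25.6 CPM in EX, a 4.29-fold difference (-2.101 ± 0.11, adjusted p = 1.2e-05) with no overlap. Nid2 (-1.04 ± 0.14, adjusted p = 0.00189), which bridges laminin and collagen IV, and Hspg2 (perlecan, -0.798 ± 0.11, adjusted p = 0.00189) moved with it. Col4a1, the main collagen of the sheet, differed precisely but under the fold limit, at 142, 129.98, 137 and 135 CPM in CR and 179.6, 182, 185 and 183 CPM in EX (-0.43 ± 0.06, adjusted p = 0.00228). Without EX 3, 5 were called.

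In the interstitial matrix 11 of 30 tested genes were called higher in EX and 2 higher in CR (median -1.49), and here the values moved with EX 3. Col3a1, a fibrillar collagen, was at 46.1, 31.3, 42.4 and 31.8 CPM in CR and 124, 121, 461 and 91.3 CPM in EX (-2.400 ± 0.60, adjusted p = 0.0456). Without EX 3 the median was -0.85 and 17 genes were called higher in EX. The count was 6 with the muscle covariate, 5 without CR 1, CR 2 or CR 3, 4 without CR 4 and 7 without EX 2. Smoc2, a matricellular protein, was the firmest, at 11.9, 10.02, 10.1 and 10.7 CPM in CR and 28.7, 27.5, 31.6 and 31.8 CPM in EX (-1.49 ± 0.09, adjusted p = 1.2e-05). Sparc, a matricellular collagen binder, was at 247, 218, 254 and 224 CPM and 382, 384, 489.6 and 352 CPM (-0.77 ± 0.11, adjusted p = 0.00189). Smoc1, the close relative of Smoc2, went the other way, at 117, 115, 96.8 and 122 CPM in CR and 70.7, 66.3, 62.6 and 72.3 CPM in EX (0.73 ± 0.09, adjusted p = 0.000877), as did Timp3, a protease inhibitor named after its values were seen (0.66 ± 0.13, adjusted p = 0.0102), which was under the fold limit without EX 1. Npnt (nephronectin) was highest in EX 3, at 0.2598, 0.334, 0.329 and 0.1701 CPM in CR and 1.71, 1.29, 7.45 and 0.913 CPM in EX (-3.37 ± 0.80, adjusted p = 0.0311), and its call was lost without CR 1, CR 2, CR 3 or CR 4 (adjusted p = 0.0609 to 0.0891). The call of Col3a1 was lost without CR 1, CR 2, CR 3, CR 4, EX 1 or EX 2 (adjusted p = 0.0619 to 0.117). With the muscle covariate neither Npnt nor Col3a1 was called. Of 6 fibroblast and progenitor markers 4 were called higher in EX (median -0.65), 2 without CR 3 or EX 3 and 0 without CR 4, Dpt (-1.22 ± 0.24, adjusted p = 0.0155) and Lum (-1.43 ± 0.28, adjusted p = 0.0181) among them. Dpt lost its call without CR 4 (adjusted p = 0.0518) and Lum without CR 2 or CR 4 (adjusted p = 0.052 to 0.0546).

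Among secreted signals, 3 of 11 tested adipokines were called, all higher in EX. Of the 11, 5 had a fold change above 0 and 6 below (median -0.11). Leptin (Lep), the hormone that reports fat stores, was at 3.33, 2.004, 3.41 and 2.76 CPM in CR and 7.83, 13.3, 8.11 and 10.7 CPM in EX (-1.79 ± 0.21, adjusted p = 0.00105). Ptgds, a prostaglandin D2 synthase, was at 0.909, 0.525, 0.658 and 0.5104 CPM and 4.68, 5.16, 8.07 and 4.91 CPM (-3.12 ± 0.25, adjusted p = 0.000106), an 8.72-fold difference. Nnat (neuronatin) was at 1.56, 1.57, 0.493 and 1.15 CPM and 4.17, 17.9, 16.3 and 10.04 CPM (-3.35 ± 0.56, adjusted p = 0.0113). All 3 were without overlap. Nampt, of NAD synthesis, was higher in CR under the fold limit (0.45 ± 0.10, adjusted p = 0.0164). Of the 7 ligands that the study names for brown fat, 4 were called higher in EX (median -0.69). The study chose that list on these libraries, so it is not independent evidence of a direction. Bmp5, a growth factor of the BMP family (-1.19 ± 0.20, adjusted p = 0.00556), and Col5a3 (-0.72 ± 0.12, adjusted p = 0.00486) were called whichever library was left out. Pdgfd (-0.69 ± 0.16, adjusted p = 0.0207) lost its call without CR 1, CR 2, CR 4 or EX 1 (adjusted p = 0.0306 to 0.0613). Sfrp2, a Wnt modulator, was at 0.303, 0.0477, 0.206 and 0.3403 CPM in CR and 0.973, 1.94, 5.56 and 0.435 CPM in EX, the top value again from EX 3 (-3.27 ± 0.90, adjusted p = 0.0482), and lost its call without CR 1, CR 2, CR 3, CR 4, EX 1 or EX 2 (adjusted p = 0.0524 to 0.111). Sfrp2 was not called with the muscle covariate either. The list had 2 calls without CR 1, CR 2, CR 4 or EX 1. Apoe was under the fold limit (-0.53 ± 0.10, adjusted p = 0.00745).

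In the insulin and IGF axis, 3 of 17 genes were called higher in CR and 2 higher in EX (median -0.08). The first were Foxo3 and, named after their values were seen, Igfbp3 (0.99 ± 0.25, adjusted p = 0.039) and Socs2 (0.79 ± 0.23, adjusted p = 0.0444), and 1 of the 3 was called without CR 1, CR 4, EX 1 or EX 4. Igfbp3 lost its call without CR 1, CR 4, EX 1, EX 2 or EX 4 (adjusted p = 0.0716 to 0.0875) and Socs2 without CR 1, CR 2, CR 3, CR 4, EX 1 or EX 4 (adjusted p = 0.0597 to 0.0916). Igfbp3 was not called with the muscle covariate either. Igf1, the growth factor itself, was at 8.74, 9.97, 9.41 and 8.68 CPM in CR and 11.9, 16.8, 21.3 and 15.9 CPM in EX (-0.84 ± 0.15, adjusted p = 0.00804), and Igfbp5, one of its binding proteins, at 25.1, 23.9, 23.2 and 23.4 CPM and 46.9, 58.1, 85.1 and 39.02 CPM (-1.26 ± 0.23, adjusted p = 0.0122), with EX 3 the highest. Grb14, an adaptor that inhibits the insulin receptor, was at 14.98, 18.5, 17.1 and 15.1 CPM in CR and 40.4, 35.3, 40.1 and 46.4 CPM in EX (-1.31 ± 0.10, adjusted p = 9.43e-05). Neither Igf1 nor Grb14 overlapped between the groups. Of 18 amino acid synthesis genes, Glul was called higher in CR and 2 proline genes, Aldh18a1 (-1.35 ± 0.23, adjusted p = 0.00562) and Pycr1 (-1.54 ± 0.41, adjusted p = 0.0324), higher in EX (median 0.07). Pycr1 lost its call without CR 1, CR 2, CR 4, EX 2 or EX 3 (adjusted p = 0.0546 to 0.0936), and with the muscle covariate. Branched-chain amino acid breakdown (15 genes), glycogen metabolism (12), heat shock chaperones (11) and antioxidant defence (15) gave 0 calls by edgeR and 1, 1, 1 and 0 by DESeq2. At an unadjusted p under 0.05 they had 6, 2, 2 and 6 genes. Of 79 cytosolic ribosomal protein genes, Rpl36 was called (0.72 ± 0.16, adjusted p = 0.0185), but not without CR 1 (adjusted p = 0.0545).

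The other diagonal of the design, CREX against control, shares no library with CR against EX and also contrasts restricted with free food, with the running now on the restricted side. It gave 1109 DEGs of 13411 genes tested (8.27%), 456 higher in CREX (3.4%) and 653 higher in control (4.87%). The count was 674 without control 2 and 728 without control 3. Of the 1002 DEGs of CR against EX, 473 were called there in the same direction (180 up, 293 down with restricted food), which is 47.2% of the first list and 42.7% of the second. The 473 became 308 without control 2. Whether called or not, 95% of the 993 that were tested there had the same sign, against 73.1% of all 13026 genes tested in both. The 7 class II genes were all called again (median -1.32), H2-Ab1 by -1.51 ± 0.27 and Ciita by -2.103 ± 0.41. Fkbp5 (3.86 ± 0.47, adjusted p = 0.00614), Cyp2b10 (3.08 ± 0.44, adjusted p = 0.0101), Ucp1 (-1.25 ± 0.21, adjusted p = 0.0129), Col15a1 (-1.76 ± 0.18, adjusted p = 0.000718) and Nr1d1 (-2.61 ± 0.41, adjusted p = 0.0138) kept direction and call.

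Some groups were weaker there and others stronger. Of 18 glucocorticoid targets, 6 were called higher in CREX and 3 higher in control (median 0.44). In CR against EX, 9 had been called higher in CR and 0 higher in EX. None of the 8 macrophage markers was called in CREX against control by edgeR or DESeq2 or had an unadjusted p under 0.05 (median -0.28), and not called either were Lep (-0.62 ± 0.63, adjusted p = 0.556), Nfkbia (0.04 ± 0.23, adjusted p = 0.92), Lpin1 (0.44 ± 0.18, adjusted p = 0.137) or Igf1, whose sign was opposite (0.77 ± 0.28, adjusted p = 0.103). Fatty acid synthesis had 10 of 18 genes called higher in CREX (median 0.65) and sterol synthesis 11 of 23 with 1 the other way (median 0.61), Elovl6 (1.16 ± 0.13, adjusted p = 0.00125), Slc25a1 (1.07 ± 0.14, adjusted p = 0.003) and Aldoa (0.801 ± 0.06, adjusted p = 0.000359) among the genes of synthesis and glycolysis that had not been called or had been fragile in CR against EX. The difference between the 2 comparisons is tested next, and these counts alone do not show one.

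**Figure D4:**
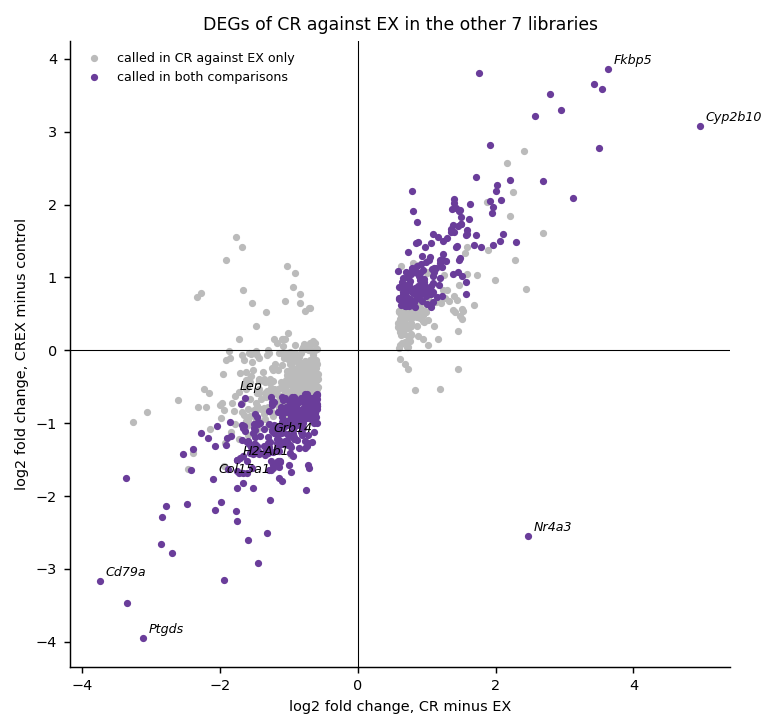
Log2 fold change of the DEGs of CR against EX that were tested in both comparisons (1 point per gene), CR minus EX on the horizontal axis and CREX minus control on the vertical axis. Purple points were called in both, and all but Nr4a3 lie in the lower left or upper right.

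The contrast of the 2 diagonals is the sum of the training effects with and without CR, tested in 1 fit of the 15 BAT libraries. It called 3 of 13901 genes (0.0216%) at adjusted p under 0.05 by edgeR, against 1523 at an unadjusted p under 0.05 and 145 by DESeq2. Of the 3, 1 was positive (0.00719%) and 2 were negative (0.0144%). Psat1, of serine synthesis, was at 2.37, 2.93 and 2.303 CPM in control, 2.81, 2.39, 2.71 and 3.06 CPM in CR, 2.41, 3.32, 3.004 and 2.78 CPM in EX and 5.804, 5.63, 6.29 and 6.91 CPM in CREX (1.35 ± 0.20, adjusted p = 0.0482). It was high in CREX alone. Atg101, which starts autophagy, was at 23.01 to 31.95 CPM in control and 15.9 to 18.6, 15.5 to 17.1 and 13.8 to 17.8 CPM in CR, EX and CREX (-0.94 ± 0.15, adjusted p = 0.0482). Ptms (parathymosin) was the third (-0.62 ± 0.10, adjusted p = 0.0482). With the muscle covariate 0 were called, and leaving out 1 library gave 0 to 8. The count was 8 without CREX 2 and 0 without any 1 of the CR libraries, the EX libraries, CREX 3, CREX 4, control 2 or control 3, with adjusted p up to 0.14 for Psat1, 0.163 for Atg101 and 0.14 for Ptms. Pik3r1, a subunit of PI3 kinase (2.15 ± 0.34, adjusted p = 0.07), and Ctsc (1.13 ± 0.20, adjusted p = 0.07) came next.

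Nr4a3, an immediate early gene, was the 1 DEG with opposite calls. It was at 7.93, 37.3 and 17.5 CPM in control, 8.49, 5.58, 8.67 and 17.3 CPM in CR, 1.07, 3.32, 2.06 and 0.782 CPM in EX and 4.65, 2.48, 5.13 and 1.95 CPM in CREX. The running group was the lower one in each comparison (2.47 ± 0.53 for CR minus EX and -2.55 ± 0.62 for CREX minus control), and the training sum did not pass (-5.03 ± 0.84, adjusted p = 0.111). The first call was lost without CR 1, EX 1 or EX 3 (adjusted p = 0.0551 to 0.0684).

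Set beside the control libraries, which both comparisons share, CR and EX lay as follows. CR against control gave 1415 DEGs of 13303 genes (10.6%), 498 higher in CR (3.74%) and 917 higher in control (6.89%). EX against control gave 0 of 13386 by edgeR, with a smallest adjusted p of 0.109. At an unadjusted p under 0.05 edgeR had 972 genes, 273 of them above the fold limit. DESeq2 was not run here for this comparison, whereas the study used DESeq2 and reports a few DEGs in each direction. The medians were -1.55 in CR and -0.02 in EX for MHC class II, 0.43 and -0.25 for glucocorticoid targets, -0.65 and -0.09 for the basement membrane, 0.68 and 0.19 for sterol synthesis, and -0.89 and 0.67 for the interstitial matrix, where EX 3 is included. Fkbp5 stood at 6.66, 1.73 and 3.41 CPM in control, so that EX differed from it by 0.39 ± 0.59 and CR by 4.02 ± 0.45. Cyp2b10 was at 6.79, 5.83 and 8.64 CPM in control, between both groups, with EX at -1.68 ± 0.71 and CR at 3.29 ± 0.34 against it. Dbp was the EX gene nearest to a call (0.66 ± 0.07, adjusted p = 0.109 against control), at 36.6, 33.4 and 31.7 CPM in control. Igf1, at 6.44, 10.98 and 7.11 CPM in control, lay 1.01 ± 0.25 higher in EX and 0.16 ± 0.17 higher in CR, neither called.

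In skeletal muscle, with 3 CR and 4 EX libraries, the same comparison gave 969 DEGs of 13165 genes (7.36%), 399 higher in CR (3.03%) and 570 higher in EX (4.33%), and 616 without SkM EX 2. Class II presentation was lower in CR there too (5 of 6 tested genes called, median -1.73), with Cd74 at -1.81 ± 0.36, adjusted p = 0.0188 and H2-Aa at -1.64 ± 0.24, adjusted p = 0.0033. Glucocorticoid targets had 11 of 18 called higher in CR (median 1.39), Fkbp5 at 2.99 ± 0.21, adjusted p = 0.000135. Col15a1 (-1.88 ± 0.23, adjusted p = 0.00131), Col3a1 (-2.47 ± 0.19, adjusted p = 0.000139) and Nr1d1 (-1.45 ± 0.21, adjusted p = 0.0033) were called in the same direction in both tissues. The macrophage list had 0 of 8 called in SkM by edgeR and 0 by DESeq2 (median 0.02, 1 at an unadjusted p under 0.05), and sterol synthesis 0 of 23 by edgeR and 1 by DESeq2 (median 0.07, 3 at an unadjusted p under 0.05).

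A test of the tissue difference, BAT minus SkM of the CR minus EX log2 change, called 771 of 14406 genes (5.35%), 455 higher in BAT (3.16%) and 316 lower (2.19%), at adjusted p under 0.05. The count was 440 without BAT CR 1, 505 without BAT CR 4, 488 without BAT EX 3, 476 without SkM CR 2, 485 without SkM EX 2 and 449 without SkM EX 4. Of 8 class II genes tested, 0 were among them by edgeR or DESeq2, and 0 had an unadjusted p under 0.05. Tcn2 (1.196 ± 0.12, adjusted p = 7.28e-05), Gstt2 (1.42 ± 0.17, adjusted p = 0.000384), Slc27a1 (1.26 ± 0.19, adjusted p = 0.00203), Fdft1 (1.32 ± 0.18, adjusted p = 0.000718) and Cry1 (1.22 ± 0.23, adjusted p = 0.00663) had a larger change in BAT, while Glul rose more in SkM (-1.400 ± 0.28, adjusted p = 0.0112, with 2.34 ± 0.23 in SkM). Glrx, a glutaredoxin, was higher in CR in BAT, at 21.5, 25.1, 19.03 and 25.5 CPM against 11.2, 11.7, 11.2 and 12.7 CPM in EX (0.96 ± 0.10, adjusted p = 0.000538), and lower in CR in SkM (-0.54 ± 0.10, adjusted p = 0.0104), a difference of 1.52 ± 0.15, adjusted p = 7.28e-05. Mtfp1, a mitochondrial fission factor, did the same (0.33 ± 0.07 in BAT, -0.97 ± 0.11 in SkM, difference 1.33 ± 0.12, adjusted p = 4.84e-05). Tln2, which links integrins to actin, went the opposite way (-0.56 ± 0.07 and 0.51 ± 0.09, difference -1.04 ± 0.10, adjusted p = 4.84e-05). Pde4a, a cyclic AMP phosphodiesterase, was at 0.05 ± 0.11 in BAT and -1.73 ± 0.13 in SkM (difference 1.801 ± 0.18, adjusted p = 7.28e-05). Smoc2 was lower in CR in BAT and at 0.27 ± 0.20, adjusted p = 0.411 in SkM (difference -1.73 ± 0.23), and Apoe was at -0.53 ± 0.10 in BAT and 1.32 ± 0.19 in SkM (difference -1.83 ± 0.23, adjusted p = 0.000483). In SkM, 4 of 4 tested hepatocyte markers were called higher in CR (median 7.17). The part of such RNA in the SkM values, Apoe included, was not tested. Among the 21 mitochondrial fatty acid oxidation genes 12 had a change that was higher in BAT, and 9 of 13 mitochondrial genome genes did, while 12 of these 13 were called higher in EX in SkM and none in BAT by edgeR. The labels do not say which BAT and SkM libraries came from the same mouse, so the tissue term treated all libraries as independent. SkM fibres and BAT also differ in library composition, whose part in this term was not tested.

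**Figure D5:**
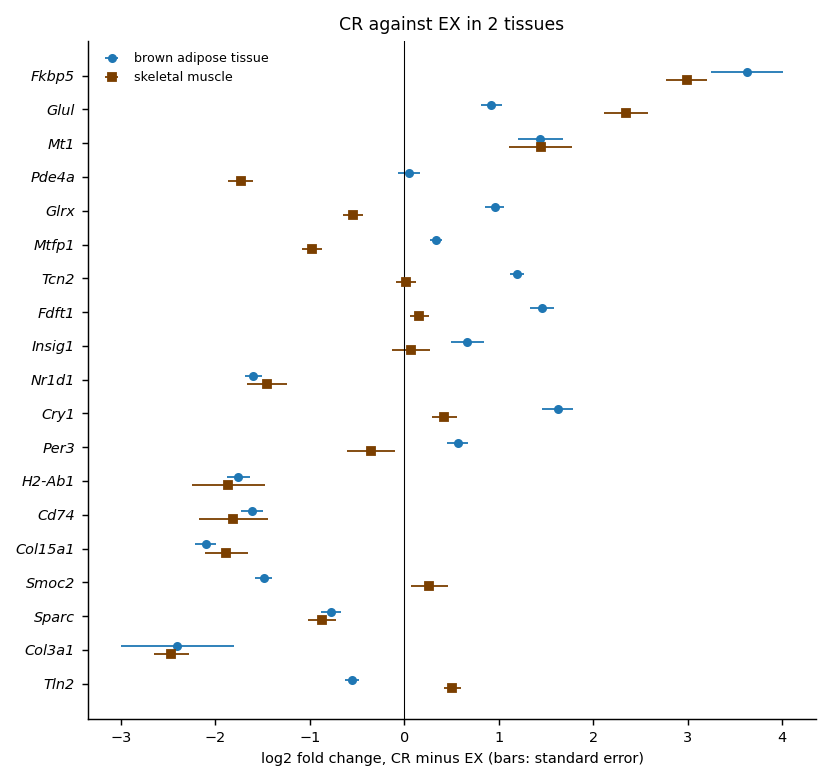
Log2 fold change of CR minus EX with its standard error for 19 genes in BAT (circles) and SkM (squares). Fkbp5, H2-Ab1, Cd74, Col15a1 and Nr1d1 lie on the same side in both tissues, whereas Glrx, Mtfp1 and Tln2 lie on opposite sides and Tcn2, Fdft1 and Smoc2 are near 0 in SkM.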

How the data were processed

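The authors mapped the RNA-seq reads to the mouse genome (mm10) and deposited expected counts per gene and library from RSEM. The submitters' processing notes name STAR 2.7.10a, RSEM 1.2.28 and DESeq2 1.3.40, and the annotation is not given in the sources used here. Every column was matched to a library by its label. Expected counts were rounded to whole numbers, filtered with filterByExpr, scaled by TMM and tested with edgeR's robust quasi-likelihood test (edgeR 4.0.16, limma 3.58.1, R 4.3.3), with the 2 groups compared in each fit, all 4 BAT groups for the training term, and the CR and EX groups of both tissues for the tissue term. Benjamini-Hochberg adjustment ran over all genes tested. DEGs were more than 1.5-fold apart with an adjusted p under 0.05, and the training and tissue terms used the adjusted p alone. CPM are rounded counts scaled to TMM library sizes. The muscle covariate was the mean log2 CPM of the muscle markers.

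Components used the 500 most variable genes by log2 CPM with a prior count of 2. DESeq2 1.42.0 gave alternative calls. Tables and plots used Python 3.11.15, pandas 2.3.3, scipy 1.17.1 and matplotlib 3.10.9. Mitochondrial genome genes carry no prefix in the table and were taken by a list of symbols. The tests were tried on simulated counts. The members and lists were chosen with earlier results of these data known.

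Genes were named by a rule: the DEGs with the largest folds without overlap, the smallest p and the largest differences in CPM, up to 4 genes of the smallest p per pathway list, all clock and MHC class II members, the 3 most abundant of each marker list, the leading genes of the training and tissue terms, Ucp1, the study's ligands, and DEGs with opposite calls. Some results under this rule are not reported here. Other genes are marked in the text as named after their values were seen. Depth sets a counting error, and intervals and limits cover counting error only.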

Additional observations from a re-analysis of the deposited data

Results flagged for a closer look

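In groups of 4 libraries, the highest or lowest value was set apart when its gap to the nearest library, as a share of the group's range, passed Dixon's critical value. Of 300 groups tested, 29 ends passed, and chance alone gives about 1 in 20 groups. No cause was tested. Among EX libraries, the highest value stood apart for Glul (0.94), Cyp2b10 (0.859), Fmo1 (0.874), Col3a1 (0.913), Npnt (0.877), Lyz2 (0.853), C1qa (0.982), C1qb (0.905), Cpa3 (0.861), Pycr1 (0.88) and Ptgds (0.857), and the lowest for Hif3a (0.902), Aldoc (0.989) and Col5a3 (0.898). Among CR libraries, the highest stood apart for Gstt1 (0.855), Gpi1 (0.88), Col15a1 (0.881), Col5a3 (0.852), B2m (0.896) and Dbp (0.896), and the lowest for Gstt2 (0.894), Per1 (0.855), Cpa3 (0.945) and Ctsc (0.865). For summed markers, the ends were the highest EX library for macrophages (0.856), neutrophils (0.895) and hepatocytes (0.997), the highest CR library for hepatocytes (0.994) and the lowest CR library for T cells (0.872).

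The CR minus EX change differed between BAT and SkM by the tissue term for Mtfp1 (1.33), Tln2 (-1.04), Glrx (1.52), Tcn2 (1.196) and Pde4a (1.801) on the log2 scale, BAT less SkM.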

How the results depend on the processing

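Over 137 pairs of gene and comparison, 2091 alternative values were computed. Of these, 1786 kept direction and side of the threshold, 248 fell below it, 41 rose above it and 16 changed direction. None of the 16 was of a called gene, and all but that of Acta1 (0.17 with the muscle covariate) were of Hlf, Ciart, Cidea, Clock and Nr1d2, which did not pass. Hlf was at 0.00261 with DESeq2, 0.00261 with RLE size factors, 0.060 with the muscle covariate, 0.0069 without a filter on low counts and 0.0069 with the replicate block, and when 1 library was left out it ran from -0.092 to 0.15, Ciart from -0.014 to 0.29, Cidea from -0.065 to 0.051, Clock from -0.15 to 0.0063 and Nr1d2 from -0.088 to 0.0034. Of 674 alternative list medians over 45 lists, 29 moved by more than the spread between libraries. Leaving out 1 library gave 585 to 1195 DEGs for CR against EX in BAT, 674 to 1107 for CREX against control, 616 to 987 in SkM, 0 to 8 genes for the training term, 440 to 1091 for the tissue term, 308 to 494 DEGs common to both BAT comparisons and 15 to 112 muscle-enriched DEGs. Without the fold limit there were 1936 DEGs for CR against EX, 2078 for CREX against control and 945 in common. With an unadjusted p under 0.05 and the fold limit there were 1620, 1777 and 799, 1559 in SkM, 844 for the training term and 1784 for the tissue term. DESeq2 gave 145 genes for the training term, 1243 for the tissue term and 89 muscle-enriched DEGs, and 1 fit on all BAT groups gave 74 of the last. The training term had 0 genes with RLE size factors and 0 with the muscle covariate. The list counts without EX 3 or with the muscle covariate and the alternatives for muscle-enriched genes were chosen after seeing the data. The cause of these shifts was not tested, apart from the fewer libraries or looser threshold of the alternative itself.

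Correlations of same-numbered CR and EX libraries in BAT ran from -0.535 to 0.435, and those of differently numbered ones from -0.66 to 0.65. These values show no clear pairing by replicate number, but with so few libraries they cannot exclude one. With the replicate block there were 677 DEGs for CR against EX, 643 of them also called without it, 739 for CREX against control, 829 in SkM, 260 in common, 1 gene for the training term and 314 for the tissue term. Among named genes called whichever library was left out, Cyp2b10, Nnat and Foxo3 lost their CR against EX calls with the block. Several genes with less stable calls lost theirs too. Groups of 3 or 4 libraries limit what small differences can show, and genes near 3 counts per library have loose folds.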
